A study of Rattus norvegicus with 6 samples.

Results

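The Serpina1 and Serpina3 paralogs are 9 neighbouring mouse genes on chromosome 12 that encode secreted protease inhibitors of the liver. They were taken as the rows of the deposited gene table whose symbol is Serpina1a, Serpina1b, Serpina1c, Serpina1d, Serpina1e, Serpina3c, Serpina3k, Serpina3m or Serpina3n, which gave 9 of the 32930 rows listed, 1 row per symbol. Liver RNA was sequenced in 3 samples of the HFD group, which received a high-fat diet and the vehicle, 0.5% CMC-Na, and in 3 samples of the HTG group, which received a high-fat diet and the herbal granule HTG. The labels give an intervention of 12 weeks in both groups and name the vehicle for the HFD group only. In the paper's rat design the gavage covered only the later part of 12 weeks of diet, and the drugs were given in 0.5% CMC-Na. The paper gives no schedule for mice. No library from animals on a normal diet was analysed here. The labels describe the tissue as fatty liver, give no age or sex, and spell the agent HCG in their treatment field. The labels name rats, whereas the paper's RNA sequencing methods name C57BL/6 J mice and the deposited rows carry mouse Ensembl identifiers. A RefSeq table of rat genes (assembly GRCr8) held 3 of the 9 member symbols, all in the Serpina3 group. It also held 2 symbols that were Serpina1 or Serpina1 plus a letter. Each of the 5 mouse Serpina1 rows carried at least 96285 estimated counts in every library, which does not by itself settle the species.

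Serpins are inhibitors that offer a protease a bait loop, are cut by it, and trap it in an inactive complex. Alpha-1-antitrypsin, which restrains the elastase of neutrophils, is made by a single SERPINA1 gene in humans, while mice carry a set of Serpina1 copies whose bait loops differ. The human SERPINA3 gene encodes alpha-1-antichymotrypsin, an acute phase protein that inhibits cathepsin G, and it too corresponds to a row of duplicated genes in mice. Hepatocytes secrete both kinds of inhibitor in large amounts.

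The authors deposited an estimated count and an FPKM value (fragments per kilobase of transcript, scaled to library depth) for each gene and library. The counts summed to between 50648778 and 90563477 per library. Low counts came in steps of about 4, since the value 4 occurred 6450 times against 2549 times for 3 and 1757 times for 5, so a library held between 12662194 and 22640869 fragments and an empty gene was limited to 3 fragments, or 12 counts, for counting error only. The hepatocyte markers, 11 of 12 symbols with a row, summed to between 104402 and 115446 CPM (counts scaled to a common library total after TMM normalisation) in the HFD libraries and to between 102405 and 111730 in the HTG libraries. Leukocyte markers summed to between 737 and 1023 CPM in the HFD libraries and between 530 and 820 in the HTG libraries, endothelial and stellate markers to between 178 and 309 and between 206 and 292, and red cell and pancreas markers to between 238 and 428 and between 263 and 492. Their part in the results was not tested. In bulk tissue, fewer cells of a type and less RNA per cell cannot be told apart. The labels do not state whether the samples of a group came from separate animals, so the p-values measure only the spread between these libraries, which may be technical.

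The members were among the most abundant transcripts of these livers. They took 3.82%, 3.64% and 3.18% of all counts in HFD libraries 1 to 3, as against 3.71%, 2.51% and 3.20% in HTG libraries 1 to 3. On the FPKM scale, which allows levels of different genes to be compared, the order by the mean of the 6 libraries was Serpina1e (4304), Serpina1c (4212), Serpina3k (2915), Serpina1a (2483), Serpina1b (2016), Serpina1d (1859.9), Serpina3n (417), Serpina3m (156) and Serpina3c (0.102). Among all rows of the table these means ranked 19, 20, 30, 35, 43, 47, 119, 296 and 18010. Neighbours in this order were not always separable. Serpina1e lay above Serpina1c in 3 of 6 libraries, Serpina3k above Serpina1a in 5, and Serpina1b above Serpina1d in 5, while the other 5 neighbouring pairs kept their order in all 6. The range of Serpina3n lay wholly below that of Serpina1d, and the range of Serpina3c wholly below that of Serpina3m.

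**Figure D1:**
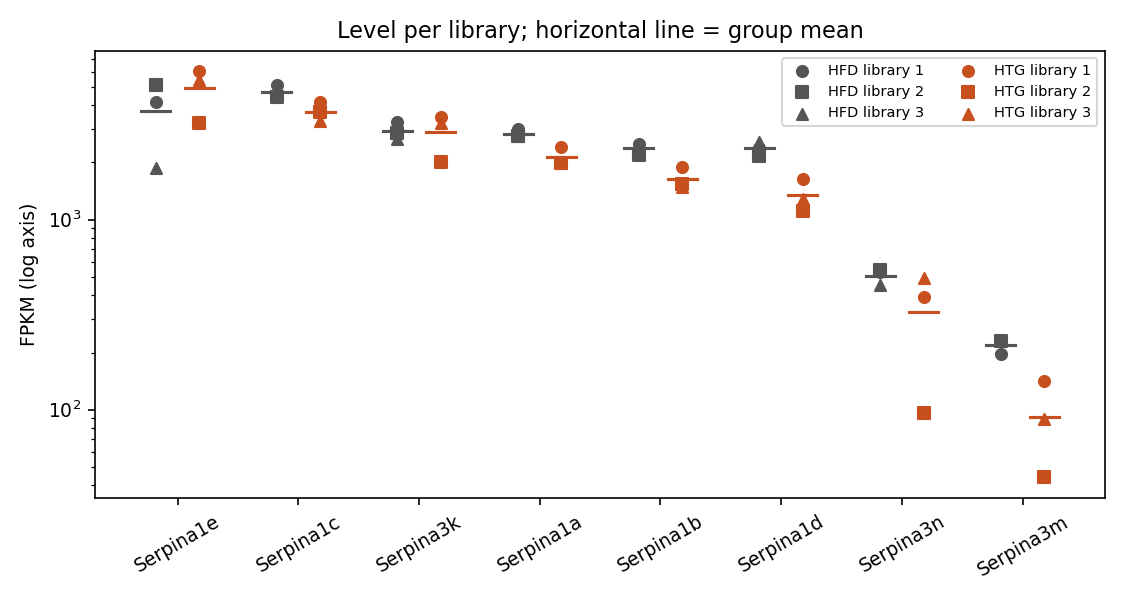
Level of 8 members in each library, in FPKM on a log axis, with grey symbols for HFD, orange symbols for HTG and a horizontal line at each group mean (n = 3 per group). The HTG symbols of Serpina1a, Serpina1b, Serpina1c, Serpina1d and Serpina3m all sit below the HFD symbols of the same gene, and HTG library 2 is far below the others for Serpina3n (96.2 FPKM). Serpina3c, at 0.3 FPKM or less, is not drawn.

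The rows are not independent of each other, because the paralogs are similar in sequence and some of their spans overlap. The span listed for Serpina1b (ENSMUSG00000071178, chromosome 12, 103694415 to 103796632, minus strand) holds that of Serpina1d (ENSMUSG00000071177, 103729853 to 103739851) and that of the unprocessed pseudogene Gm8893 (103784115 to 103788502) on the same strand. Serpina3m (ENSMUSG00000079012, chromosome 12, 104304745 to 104360516, plus strand) starts at the same base as Serpina3k (ENSMUSG00000058207, 104304745 to 104312403), and both overlap over 7659 bases. The remaining members lie at 103819848 to 103829814 (Serpina1a), 103861185 to 103871146 (Serpina1c), 103913190 to 103925234 (Serpina1e), 104112641 to 104120129 (Serpina3c) and 104372988 to 104380588 (Serpina3n). The lncRNA gene B430119L08Rik is listed on the opposite strand within the span of Serpina1c. Coordinates are those of the authors' table, which names no build. The counts behind 1 FPKM also differed between the paralogs, from 92.4 for Serpina1c to 164 for Serpina1b in HFD library 1, and Serpina1b lay above Serpina1a by mean count but below it by mean FPKM. How reads that fit several paralogs were assigned is not given in the sources used here, and each single row is uncertain for that reason.

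Comparing HTG with HFD asked whether the herbal treatment went with a change in these inhibitors on the same diet. None of the 9 members, all of which passed the expression filter, passed an adjusted p of 0.1 by the quasi-likelihood test of edgeR, against 10.8% of the 18455 genes tested (5.41% higher and 5.43% lower in HTG). In all, 2001 genes passed this threshold and 2 passed 0.05. The fitted value was lower in HTG for 6 members and higher for 3, and the median log2 fold change of the 9 was -0.37, against 0.03 for all genes tested. In 5 members, Serpina1a to Serpina1d and Serpina3m, every HTG library lay below every HFD library in CPM, and in 0 members did every HTG library lie above. Over all genes tested, 15.5% had groups that did not overlap with HTG lower and 16.5% with HTG higher. An unadjusted p under 0.05 in the edgeR test was reached by 2 members, Serpina1d and Serpina3m, both lower in HTG. Of all genes tested, 24.7% reached it in either direction and 12.4% reached it with HTG lower. With DESeq2, 3 members had an adjusted p under 0.1, all lower in HTG (Serpina1d, adjusted p = 0.0143, Serpina3m, adjusted p = 0.0138, and Serpina1b, adjusted p = 0.0907). Of the 19333 genes with an adjusted p in that test, 3118 passed in either direction and 8.77% passed with HTG lower. The same 5 members did not overlap on the FPKM scale. Divided by the summed hepatocyte markers, a scale chosen after the values were seen, only Serpina1b, Serpina1d and Serpina3m did not overlap.

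Among the alpha-1-antitrypsin genes, Serpina1d differed most between the groups in the low direction. It had 2383, 2173 and 2572 FPKM in HFD libraries 1 to 3, as against 1637, 1109 and 1283 in HTG libraries 1 to 3. All HTG values lay below all HFD values, with means of 2376 ± 199.6 and 1343 ± 269 FPKM (SD, n = 3 per group). On the count scale its log2 fold change came to -0.77 (standard error 0.25, adjusted p = 0.111 in edgeR's quasi-likelihood test), or 1.70 times lower in HTG. Serpina1b had 2501, 2180.2 and 2493 FPKM under HFD, as against 1888, 1544 and 1489 under HTG. Its groups did not overlap either, with a log2 fold change of -0.49 (standard error 0.23, adjusted p = 0.232). Since the rows of Serpina1b, Serpina1d and Gm8893 overlap, their sum was also taken. It was 9653, 9533 and 9964 CPM under HFD, as against 7600.05, 5427 and 6389 CPM under HTG. Each of the summed rows was lower in every HTG library by itself, so the sum could not overlap and adds no separate evidence.

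Serpina1a had 3003, 2759 and 2747 FPKM in HFD libraries 1 to 3, as against 2413, 1989.7 and 1989 in HTG libraries 1 to 3, with a log2 fold change of -0.37 (standard error 0.23, adjusted p = 0.368). Serpina1c, the second most abundant member, had 5126, 4416 and 4613 FPKM under HFD, as against 4151, 3664 and 3302 under HTG, a log2 fold change of -0.30 (standard error 0.23, adjusted p = 0.448). In both genes every HTG library lay below every HFD library, and neither passed the test. Serpina1e behaved otherwise. It had 4173, 5091 and 1871 FPKM under HFD, as against 6047, 3214 and 5431 under HTG, so that HFD library 3 was lowest, HTG libraries 1 and 3 were highest and the groups overlapped. The fitted log2 fold change came to 0.45 (standard error 0.44, adjusted p = 0.566). Without HFD library 3 it was 0.11, without HFD library 2 it was 0.81, without HTG library 1 it was 0.23 and without HTG library 2 it was 0.71.

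**Figure D2:**
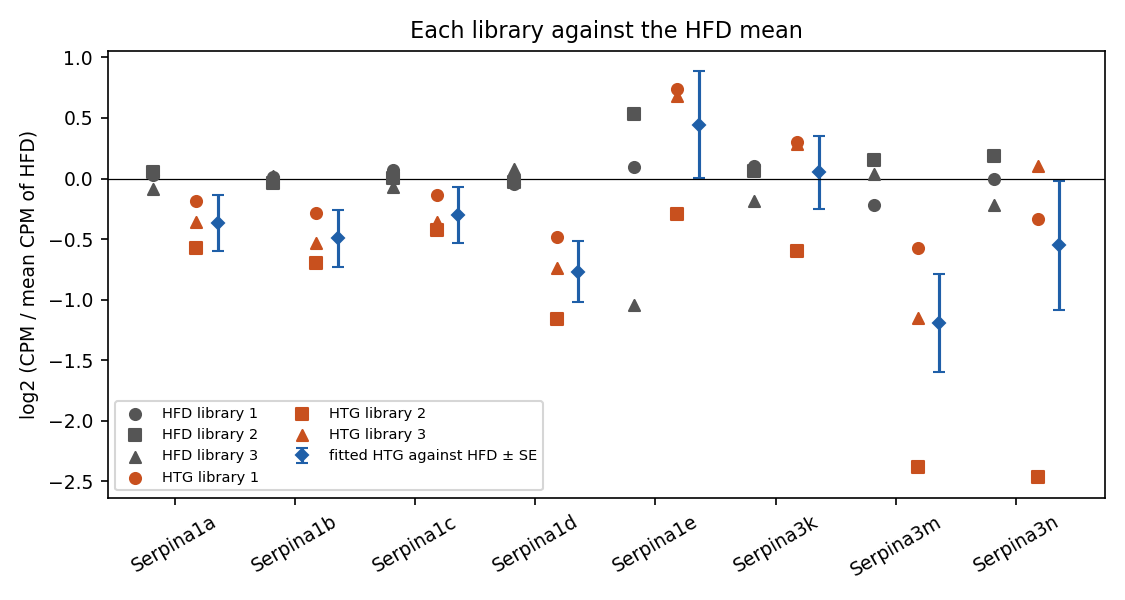
Each library's CPM over the mean CPM of the HFD group, as log2, for 8 members, with the fitted log2 fold change and its standard error as a blue diamond. Serpina1a to Serpina1d and Serpina3m have all 3 HTG symbols below 0 and below the HFD symbols, while Serpina1e and Serpina3k have HTG libraries 1 and 3 above 0 and HTG library 2 below it.

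The sum of the 5 Serpina1 rows was taken as a reading of alpha-1-antitrypsin mRNA as a whole. It does not depend on how reads were split among these rows, provided that each shared read was counted once and within them. That condition was not tested, and the pseudogene Gm8893, with 9406 to 23711 counts per library, is not in the sum. The total was 28501, 30527.5 and 24101 CPM in HFD libraries 1 to 3, as against 28606, 18898 and 25627 CPM in HTG libraries 1 to 3. HTG library 2 was lowest, the other HTG libraries lay within the HFD range, and the log2 fold change came to -0.19 (standard error 0.29). The lower values of Serpina1a to Serpina1d and the higher values of Serpina1e in HTG libraries 1 and 3 met in a total that overlapped between the groups.

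The paralogs' shares of that total were then compared. Serpina1e supplied 23.6%, 29.8% and 12.6% of the Serpina1 counts in HFD libraries 1 to 3, as against 36.6%, 27.2% and 39.4% in HTG libraries 1 to 3. HFD library 2 exceeded HTG library 2, so these shares overlapped (two-sided exact permutation test, p = 0.2, adjusted p = 0.257 over the 9 shares tested). Serpina1d supplied 11.6%, 10.98% and 15.0% under HFD, as against 8.55%, 8.10% and 8.02% under HTG. That share was lower in every HTG library, with the smallest p that 3 libraries against 3 allow (exact permutation test, p = 0.1, adjusted p = 0.225). Serpina1a made up between 16.3% and 21.0%, Serpina1b between 16.1% and 25.1%, and Serpina1c between 20.1% and 26.2% over the 6 libraries, with overlapping groups.

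Of the 10 pairs of Serpina1 rows, those among Serpina1a, Serpina1b and Serpina1c had the narrowest ranges of count ratios. The log2 ratio of Serpina1a to Serpina1c counts ran from -0.45 to -0.25 over the 6 libraries, with overlapping groups. That of Serpina1a to Serpina1b ran from -0.26 to 0.02 and was higher in every HTG library, and that of Serpina1b to Serpina1c ran from -0.42 to -0.06 and was lower in every HTG library. The ratios of Serpina1a, Serpina1b and Serpina1c to Serpina1d were also higher in every HTG library, while those to Serpina1e overlapped. The log2 ratio of Serpina1d to Serpina1e ran from -2.30 to 0.25, and every HTG library lay below every HFD library. The log2 ratio of Serpina1e to the summed Serpina1a to Serpina1d was -1.69, -1.23 and -2.79 under HFD, as against -0.79, -1.42 and -0.62 under HTG (exact permutation test, p = 0.2). Pairs that share a row are not independent, so the ratios with Serpina1d partly restate its lower values and are not separate results. Whether the assignment of shared reads bears on these ratios was not tested.

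**Figure D3:**
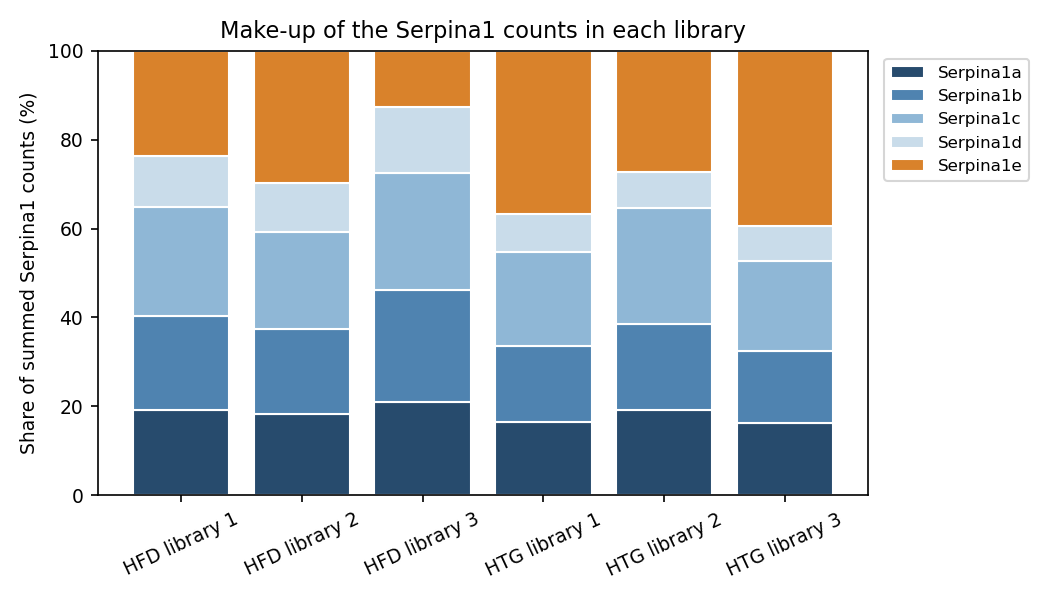
Share of the summed Serpina1 counts that each of the 5 paralogs supplied, in percent, as 1 stacked bar per library. The Serpina1e segment is shortest in HFD library 3 (12.6%) and longest in HTG library 3 (39.4%), and the Serpina1d segment is shorter in each HTG library than in any HFD library.

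Serpina3m had the lowest fitted value of the 9 members. It had 196, 229 and 233 FPKM in HFD libraries 1 to 3, as against 142, 44.0 and 89.2 in HTG libraries 1 to 3. The groups did not overlap, and their means were 219 ± 20.0 and 91.9 ± 49.3 FPKM (SD, n = 3 per group). The log2 fold change came to -1.19 (standard error 0.40, adjusted p = 0.120 in edgeR's quasi-likelihood test), or 2.29 times lower in HTG, and without HTG library 2 it was -0.84. Its neighbour Serpina3k, known as contrapsin and as a kallikrein-binding inhibitor, was the most abundant Serpina3 gene. It had 3258, 2866 and 2653 FPKM under HFD, as against 3481, 2018 and 3216 under HTG. These values overlapped, and the log2 fold change came to 0.05 (standard error 0.30, adjusted p = 0.937), with a negative sign on the FPKM scale. Of the counts of Serpina3k and Serpina3m together, Serpina3m took 4.80%, 6.26% and 6.83% under HFD, as against 3.31%, 1.79% and 2.26% under HTG (exact permutation test, p = 0.1, the smallest possible). The sum of these overlapping rows was 7018, 6958 and 5897 CPM under HFD, as against 7936, 4182 and 7776 CPM under HTG. Its groups overlapped, but Serpina3k made up most of this sum, which therefore could hardly show a separation of Serpina3m. Whether read assignment bears on that separation was not tested.

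Serpina3n, an acute phase inhibitor that blocks granzyme B, was set apart by a single library. It had 528, 543 and 450.5 FPKM under HFD, as against 390.2, 96.2 and 492 under HTG. HTG library 3 lay within the HFD range, HTG library 1 was somewhat below it and HTG library 2 was far below. The log2 fold change came to -0.55 (standard error 0.53, adjusted p = 0.556). It was -0.10 without HTG library 2 and -1.02 without HTG library 3. Serpina3c was close to the limit of an empty gene, with 13, 0 and 16 estimated counts under HFD, as against 56, 22 and 4 under HTG. Of these, 2 libraries were at or under 12 counts, and the log2 fold change of 1.31 had a standard error of 1.21 (adjusted p = 0.533).

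The summed Serpina3 rows had 8106, 8197 and 6833 CPM in HFD libraries 1 to 3, as against 8800.2, 4379 and 8942 CPM in HTG libraries 1 to 3. The groups overlapped, and the log2 fold change came to -0.06 (standard error 0.32), with a value of 0.20 without HTG library 2. Serpina3k supplied 82.4%, 79.6% and 80.4% of the sum under HFD, as against 87.2%, 93.8% and 85.0% under HTG. Its share was higher in every HTG library, and those of Serpina3m and Serpina3n were lower (exact permutation tests, p = 0.1 each, adjusted p = 0.225). The shares add up to the whole, of which Serpina3c took almost nothing. The higher share of Serpina3k is therefore the counterpart of the lower ones and no separate result.

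HTG library 2 had the lowest CPM of the 6 libraries for 7 of the 9 members, all but Serpina1e and Serpina3c. A list of acute phase genes, most of them for liver proteins whose plasma level rises in inflammation, was set beside this. The list also held genes of cellular proteins, such as Mt1, Mt2 and Steap4. Of the 25 listed, 20 were lowest in HTG library 2 and 19 were highest in HTG library 3. The matching shares over all genes tested were not computed, so these counts do not set either group of genes apart. Serum amyloid A gene Saa1 had 1685, 2726 and 1570.1 CPM under HFD, as against 2827, 172 and 8912 CPM under HTG. The orosomucoid gene Orm2 had 818, 813 and 877 CPM under HFD, as against 927, 282 and 4264 CPM under HTG. The summed list ran from 53261 to 77772 CPM in the HFD libraries and was 84821, 36243 and 129915 CPM in HTG libraries 1 to 3. None of the 25 passed an adjusted p of 0.1 (edgeR's quasi-likelihood test, median log2 fold change 0.54), with 3 at an unadjusted p under 0.05, against 24.7% of all genes tested. The summed list thus ranged more widely among the HTG livers than among the HFD livers, and its part in the members' values was not tested. Serpina3n did not share the high values of HTG library 3.

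**Figure D4:**
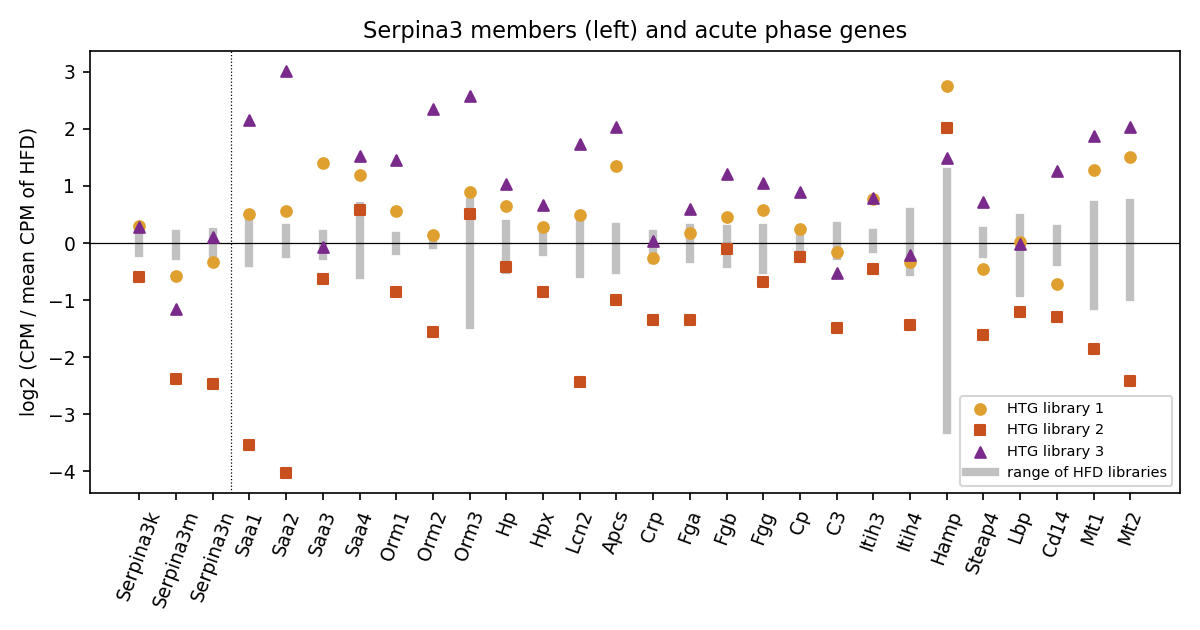
CPM of the 3 HTG libraries over the HFD mean, as log2, for Serpina3k, Serpina3m and Serpina3n (left of the dotted line) and 25 acute phase genes, with the range of the HFD libraries as a grey bar. HTG library 2 (squares) is the lowest of the 6 libraries for 20 of the 25 acute phase genes and HTG library 3 (triangles) the highest for 19.

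The other clade A serpins of the list surround the members on chromosome 12, apart from Serpina7 on chromosome X. Of 17 symbols 16 had a row and 12 were tested, of which 3 rose in HTG (5.41% of all genes tested), 0 fell and 9 did not pass the test. The 3 that rose were at low or very low levels in the HFD group. Serpina4-ps1 (ENSMUSG00000092075, chromosome 12, 104046908 to 104052983), a pseudogene of kallistatin, had 2.04, 4.99 and 0.835 CPM in HFD libraries 1 to 3, as against 141, 76.8 and 50.1 CPM in HTG libraries 1 to 3. The fitted log2 fold change came to 5.09 (standard error 0.69, adjusted p = 0.0538 in edgeR's quasi-likelihood test), a far larger difference than for any member. With single libraries left out it ran from 4.56 to 5.96. Serpina3h, listed as a transcribed pseudogene, had 29, 28 and 15 counts under HFD, as against 173, 100 and 115 under HTG, a log2 fold change of 2.43 (standard error 0.50, adjusted p = 0.0585). Serpina9 had 8, 0 and 4 counts in the HFD libraries, all under the limit of an empty gene, and 115, 92 and 49 in the HTG libraries, at least 6.62-fold higher against that limit averaged over the HFD libraries (adjusted p = 0.0585). These calls held in part of the refits: leaving out HFD library 3, HTG library 2 or HTG library 3 left none of them, and left 0 genes of the whole table, with an adjusted p under 0.1.

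Most of the clade A serpins that did not pass the test had overlapping groups. Serpina6, which encodes the corticosteroid-binding globulin, averaged 296 ± 36.1 CPM in HFD and 246 ± 51.1 in HTG (SD, n = 3 per group). Serpina7, the thyroxine-binding globulin, averaged 144 ± 83.2 and 95.2 ± 34.2 CPM, and Serpina10, the inhibitor that works with protein Z, 323 ± 63.9 and 401 ± 246 CPM (SD, n = 3 per group). Serpina12, which encodes vaspin, averaged 34.1 ± 11.3 and 47.8 ± 9.18 CPM, and Serpina11 85.9 ± 22.9 and 113 ± 31.1 CPM (SD, n = 3 per group). Serpina3g, a gene known from leukocytes, averaged 8.78 ± 3.64 and 10.7 ± 2.81 CPM (SD, n = 3 per group). Serpina3f had 2.99, 1.44 and 1.74 CPM under HFD, as against 13.3, 2.39 and 3.44 CPM under HTG, where HTG library 1 stood out. Serpina3i had 12, 0 and 13 counts under HFD, as against 41, 37 and 33 under HTG (adjusted p = 0.235), which did not overlap, and Serpina3b had between 4 and 27 counts in every library. Serpina1f, Serpina3a, Serpina5 and Serpina16 were not tested, with 16 counts at most in any library.

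**Figure D5:**
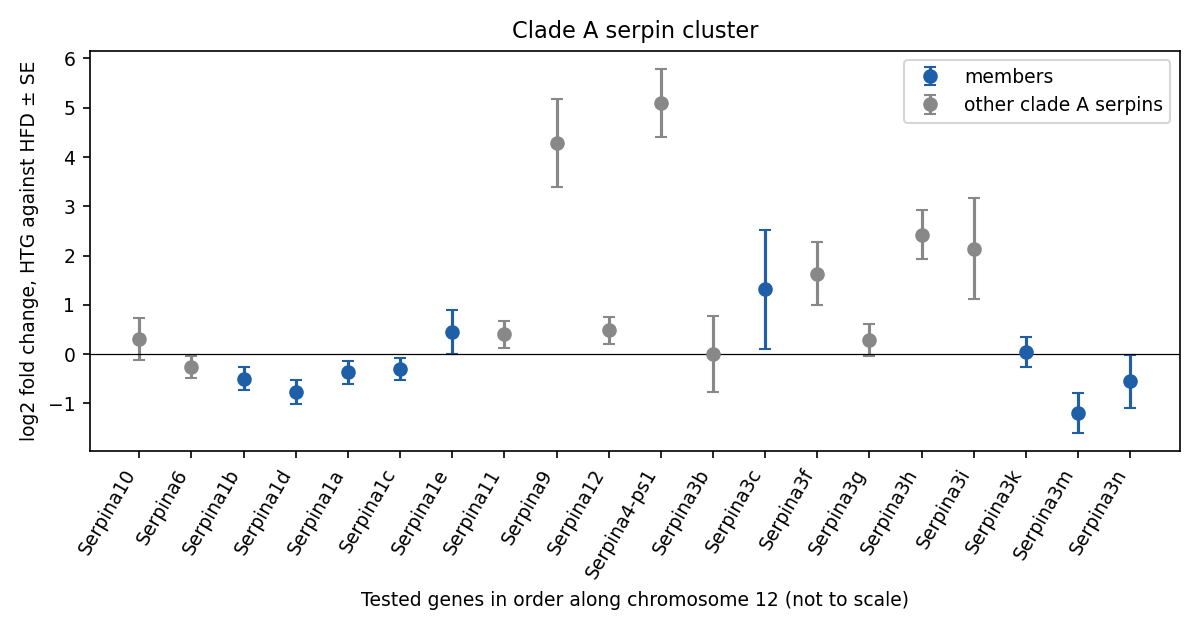
Fitted log2 fold change of HTG against HFD, with its standard error, for the 20 tested clade A serpins of chromosome 12 in their order along the chromosome (not to scale), with members in blue. Serpina4-ps1 (5.09) and Serpina9 stand far above the line, whereas Serpina1b, Serpina1d, Serpina1a and Serpina1c lie side by side below it.

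Of 14 serpins outside clade A, 0 rose, 3 fell and 11 did not pass the test, with a median log2 fold change of -0.44. Over all genes tested, 5.41% rose and 5.43% fell, the shares to set beside each list count here. The 3 that fell were Serpind1, heparin cofactor II, from 451 to 265 CPM (log2 fold change -0.77, standard error 0.22, adjusted p = 0.0858), Serpinb6a from 25.7 to 13.0 CPM (log2 fold change -0.99, standard error 0.24, adjusted p = 0.0659) and Serpine2. Among 15 tested genes of proteases, the targets of such inhibitors included, 1 rose and 0 fell. It was Prtn3, a serine protease of neutrophils, with 13.5, 9.42 and 16.1 CPM under HFD, as against 48.8, 27.6 and 159.6 CPM under HTG. Its log2 fold change was 2.60 (adjusted p = 0.0616, edgeR's quasi-likelihood test). Without HTG library 3 it was 1.56 with no call, but that refit called 0 genes of the whole table. Of the 15 tested leukocyte markers 14 did not pass the test. The exception was Adgre1, a macrophage marker, which fell from 22.1 to 7.64 CPM (adjusted p = 0.0538).

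Genes of signalling, transcription and secretion were followed next, against the 10.8% of all genes tested that passed the threshold. In the list of IL-6, STAT3 and glucocorticoid signalling, 2 of 21 genes rose and 2 fell. Socs3, a feedback inhibitor of STAT3 signalling, had 33.2, 31.3 and 12.4 CPM under HFD, as against 53.1, 117 and 248 CPM under HTG. It rose in HTG (log2 fold change 2.44, adjusted p = 0.0629 in edgeR's quasi-likelihood test). Without HTG library 3 the log2 fold change was 1.73 with no call, but that refit called 0 genes of the whole table. The receptor gene Lifr rose from 93.7 to 152 CPM (adjusted p = 0.0717). The IL-6 receptor gene Il6ra fell from 62.6 to 36.8 CPM (log2 fold change -0.77, adjusted p = 0.0651), as did the glucocorticoid-responsive gene Tat, from 1818 to 730.1 CPM (adjusted p = 0.0839). Of 19 liver transcription factors, Foxa2 (log2 fold change 0.91, adjusted p = 0.0948) and Foxa1 (0.72, adjusted p = 0.0963) rose and 0 fell. Foxa2 had 37.4, 68.9 and 34.4 CPM under HTG, and its log2 fold change was 0.53, without a call, when HTG library 2 was left out. That refit, too, called 0 genes of the whole table. Limma on either FPKM scale did not call Foxa2. Of 26 genes of secretory folding and degradation, the route that handles alpha-1-antitrypsin in the endoplasmic reticulum, 2 rose and 1 fell. These were the ubiquitin ligase gene Syvn1 (log2 fold change 0.93, adjusted p = 0.0627), the disulphide isomerase gene Pdia3 (0.77, adjusted p = 0.0979) and the stress sensor gene Atf6 (-0.90, adjusted p = 0.0837).

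Sex-biased liver genes were followed because growth hormone sets many secreted liver proteins. The shares over all genes tested, to set beside each list count here, were 5.41% higher and 5.43% lower in HTG. Of 17 male-biased genes 2 rose (Hsd3b5 and Selenbp2, the latter from 48.7 to 268 CPM), 1 fell (Ugt2b38, from 41.3 to 9.63 CPM) and 14 did not pass the test. Hsd3b5 had 6.05, 3.01 and 1.13 CPM under HFD, as against 31.5, 70.5 and 21.4 CPM under HTG. Its log2 fold change of 3.60 was 4.31 when HFD library 1 was left out and 2.96 when HTG library 2 was. Of the 7 female-biased genes tested, 0 rose and 0 fell. Hepatocyte markers went both ways, with Apoa1 and Apoc3 higher, Cps1 and Ass1 lower and 7 of 11 not passing the test. None of the 12 endothelial and stellate markers and none of the 6 tested red cell and pancreas markers passed an adjusted p of 0.1 (edgeR's quasi-likelihood test).

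The likeness of the members' patterns was described by the root mean square distance between log2 CPM values over the 6 libraries, each centred on its mean. Among the members the closest pairs were Serpina1a with Serpina1c (0.06), Serpina1a with Serpina1b (0.09) and Serpina1b with Serpina1c (0.11), while Serpina1e was nearest to Serpina3k (0.47) and Serpina3m to Serpina1d (0.45). Of the 14362 other genes compared, the nearest were Igfbp4 (0.03) and Met (0.03) for Serpina1a, Cd82 (0.04) and Arpc2 (0.04) for Serpina1b, Esd (0.04) and Adi1 (0.04) for Serpina1c, and Iyd (0.05) and Vcp (0.06) for Serpina1d. For Serpina3k they were Apon (0.09) and Grhpr (0.10), and for Serpina3m Hspd1-ps3 (0.12) and Spcs1 (0.13). The remaining members had no neighbour as close: Gm5905 (0.16) and Zfp428 (0.20) for Serpina1e, the unnamed gene ENSMUSG00000121156 (0.24) and Jade1 (0.25) for Serpina3n, and Chst2 (0.35) and Igfbp5 (0.38) for Serpina3c. Such distances also tend to be larger for members that vary more. The SD of the log2 CPM over the libraries ran from 0.18 for Serpina1c to 0.92 for Serpina3n. With so many genes and 6 libraries, close matches are easily found, and these values are a description of the libraries.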

How the data were processed

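Liver mRNA of 3 HFD and 3 HTG samples was sequenced from strand-marked, paired-end poly(A) libraries. For every gene and library the authors deposited 2 values, an estimated count rounded to whole numbers and an FPKM value. The submitters' processing notes name HISAT2, StringTie and SAMtools and the rat build mRatBN7.2, without versions, whereas the rows are mouse genes. The build of the rows and the handling of reads shared by paralogs are not given in the sources used here.

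Groups and replicate numbers came from the sample titles. Counts were compared with edgeR 4.0.16 (glmQLFit, glmQLFTest, TMM, filterByExpr, R 4.3.3), with Benjamini-Hochberg adjustment over 18455 genes and a threshold of 0.1. Standard errors were derived from the fold change and the F statistic. Subfamily sums replaced their rows in a further fit and carry no p. Shares were compared by two-sided exact permutation tests (SciPy 1.17.1). Alternatives were DESeq2 1.42.0, RLE and upper-quartile scaling, other filters, counts divided by 4, a block for the replicate number, leave-one-out refits, and limma 3.58.1 on log2(FPKM + 0.1) and log2(FPKM + 1) at a mean FPKM of at least 1. The scripts were tested on simulated counts.

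The members, the gene lists and the threshold were chosen with earlier results of these data known. Named genes were the members, all listed clade A serpins, in each other list the 2 with the smallest p in each direction at an adjusted p under 0.1, and the 2 nearest genes per member with a mean of at least 50 counts. Serpine2, Saa1, Orm2 and the overlapping genes were named after their values were seen. Mouse reference sequences were not used here. The RefSeq tables supplied are of the rat.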

Additional observations from a re-analysis of the deposited data

How the results depend on the processing

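Of 15 alternative fits, 9 also called 0 members at an adjusted p under 0.1. DESeq2 called 3, counts divided by 4 called 2, limma on log2(FPKM + 0.1) and on log2(FPKM + 1) called 2 each, and a minimum of 10 counts in every library called 1. Leaving out each library in turn gave between 0 and 2, with 2 without HTG library 1. Serpina1a to Serpina1d, Serpina3m and Serpina3n stayed below 0, and Serpina1e above it, in all 15 fits, and Serpina3c above it in the 11 fits that kept it. The sign changed for Serpina3k on log2(FPKM + 0.1) and log2(FPKM + 1) (-0.044 each) and when single libraries were left out (from -0.14 to 0.29), for Serpina3b with RLE scaling (-0.016), DESeq2 (-0.015), the replicate block (-0.065) and single libraries left out (from -0.32 to 0.38), and for Serpina10 with single libraries left out (from -0.25 to 0.67). The summed Serpina1 rows ran from -0.36 to -0.03 and the summed Serpina3 rows from -0.26 to 0.20 with 1 library left out. Every difference in a paralog's share kept its sign under each alternative run for it.

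Over the whole table, 2001 genes had an adjusted p under 0.1, against 3118 with DESeq2, 1303 without a filter, 2559 with the minimum of 10 counts, 2572 with counts divided by 4, 2399 and 2411 with limma, 417, 16 and 0 without HFD library 1, 2 and 3, and 2578, 0 and 0 without HTG library 1, 2 and 3. With the replicate block 0 members and 0 genes were called. Same-numbered libraries did not clearly deviate together (r of -0.08, -0.07 and 0.10 across genes), and differently numbered ones gave r from -0.12 to 0.18. These values cannot settle whether the numbers pair the samples. Depth limits the rows near or under 12 counts in any library, which include Serpina3c, Serpina3b, Serpina3h, Serpina3i and Serpina9 and the untested Serpina1f, Serpina3a, Serpina5 and Serpina16.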
